A study of Mus musculus with 6 samples.

Results

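The mRNAs described here encode RNA modification enzymes and their closest relatives, measured in non-polysomal (NP) and polysomal (P) fractions of oocytes from aged mice. They were chosen by symbol: every gene of the expression table that begins with *Nsun*, *Mettl*, *Pus* or *Alkbh* followed by a digit, or with *Trmt*. The rule found 52 of 25899 genes, made up of 6 *Nsun*, 10 *Trmt*, 23 *Mettl*, 5 *Pus* and 8 *Alkbh* genes. The prefixes do not hold RNA enzymes alone. By the targets usually given for these proteins, 18 act on cytosolic tRNA, 7 on mitochondrial RNA, 5 on mRNA or spliceosomal RNA and 2 on cytosolic rRNA, while 9 modify proteins, 2 repair DNA, 1 is a cofactor (*Trmt112*) and 8 have no target that could be given with confidence. Enzymes listed in the table under older symbols outside these prefixes were not included.

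Modified bases are added to RNA after transcription. In tRNA they shape the folded body and the anticodon loop, so that codons are read accurately, and in rRNA they lie around the working centres of the ribosome. In mRNA, N6-methyladenosine is written by a complex built on *Mettl3* and *Mettl14*, can be removed by *Alkbh5* or *Fto*, and is read by YTH proteins. A fully grown oocyte no longer transcribes, so these enzymes can only be made from stored mRNAs as meiosis proceeds.

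The series holds 6 libraries, 3 of NP and 3 of P RNA, each from a sample of 200 oocytes of CD1 mice aged 58 weeks according to the labels. The study's text gives another age and names the strain ICR. All samples shared one treatment. The females received 5 IU of pregnant mare serum gonadotropin 46 h before collection, oocytes were held in prophase by 100 µM of the phosphodiesterase inhibitor IBMX and then cultured without it for 180 min, after which 0.1 mg/ml cycloheximide was added for 10 min to keep ribosomes on their mRNAs. Lysates of oocytes that had broken down their nuclear envelope were separated into 10 sucrose gradient fractions. NP pools the fractions with free RNA or monosomes, and P those with polysomes. Oocytes of young females were not analysed here. No source states which animals gave which sample, so the tests measure the spread between these libraries, which may be technical, and in such bulk samples fewer oocytes with an mRNA and less of it per oocyte cannot be told apart.

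Values are FPKM, fragments per kilobase of exon, scaled to the mapped reads of each library. Depth, recovered from the steps between low values, was between 1234841 and 18082454 reads in NP and between 162422 and 1548741 in P, although what 1 step counts is not settled. Reads over exons came to between 1.16 and 2.39 times this depth, so it is not taken as the total of mapped reads. An mRNA with 3 reads would be listed, across the lengths of these 52 genes, at between 1.34 and 17.98 FPKM in P replicate 1 but at between 0.0120 and 0.162 in NP replicate 2, and such limits cover counting error only. The FPKM of all genes summed to between 597300 and 633100 in NP and between 246200 and 393900 in P. Across 10578 tested genes the log2 ratio of P to NP had a median of -1.03 on the log2(FPKM + 1) scale, which is the value a ratio below has to be set against; it is subtracted where a ratio is called relative to the median gene. Of 12 oocyte marker genes, 11 were above 0 in all 6 libraries. Of 10 granulosa or cumulus markers, 5 (*Amh*, *Fshr*, *Foxl2*, *Inhba* and *Has2*) were listed at 0 in all 6, and the 10 together summed to between 11.2 and 131 FPKM in NP and between 1.18 and 16.5 in P, most of it *Cyp19a1* and *Nr5a2*. All 4 blood markers in the table were at 0.

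In maturing oocytes many stored mRNAs are recruited through a cytoplasmic polyadenylation element near the 3′ end. The letters TTTTAT or TTTTAAT, 2 common forms of that element, were searched on the sense strand of the last 100 bases of 1 transcript per gene (GENCODE M21, GRCm38). They were present in 10 of 49 RNA modification mRNAs with a 3′ UTR (20.4%), against 17.1% of 19511 genes. Stretches of at most 30 bases from 8 of these, all among the mRNAs compared between the fractions below, are shown because they span the range of the results, from an mRNA listed at 0 in every P library to the highest ratio; capitals mark the element.
*Nsun5*, chr5:135376780-135376798, plus strand: aaaataaaTTTTATtttgt
*Mettl9*, chr7:121076794-121076823, plus strand: aaaaatgtTTTTAATcatgctaataaacgt
*Nsun6*, chr2:14995170-14995199, minus strand: aaaaaggcTTTTATtttacattatatgatt
*Pus7*, chr5:23740727-23740756, minus strand: ctagccagTTTTATtttctgttatttctta
*Alkbh1*, chr12:87426190-87426219, minus strand: agataaaaTTTTATtttttcagaaagtggt
*Mettl1*, chr10:127046348-127046365, plus strand: agaattatTTTTATgtta
*Trmt6*, chr2:132804249-132804278, minus strand: actttggtTTTTATtcctttttctctaaac
*Mettl14*, chr3:123368320-123368349, minus strand: aactccttTTTTATtttgctataacttttc
The element begins 11 bases from the annotated end in *Nsun5* and 10 in *Mettl1*, but 100 in *Pus7*. A poly(A) signal, AATAAA or ATTAAA, lay in the same window in 77.6% of the 49 mRNAs and in 76.8% of all genes, and in *Nsun5* it directly precedes the element. The Pumilio letters TGTANATA, searched over the whole 3′ UTR, were in 10.2% of the 49 and in 22.4% of all genes. These matches describe letters only, and other sites or other 3′ ends used in oocytes were not examined.

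Most of the 52 mRNAs were present in NP, and far fewer were seen repeatedly in P. In NP, 34 were above 0 in all 3 libraries, 7 in 2, 6 in 1 and 5 in none. In P, 13 were above 0 in all 3 libraries, 8 in 2, 21 in 1 and 10 in none. The number above 0 followed the libraries, at 42, 45 and 35 in NP replicates 1 to 3 and at 20, 36 and 20 in P replicates 1 to 3. P replicate 1 is the shallowest library, while P replicate 3, the deepest P library, listed as few, and the part of depth in these counts was not tested. The 5 mRNAs at 0 in every library were *Nsun7*, *Trmt61b*, *Mettl21a*, *Mettl7b* and *Alkbh8*, which encodes a wobble uridine methyltransferase of tRNA.

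**Figure D1:**
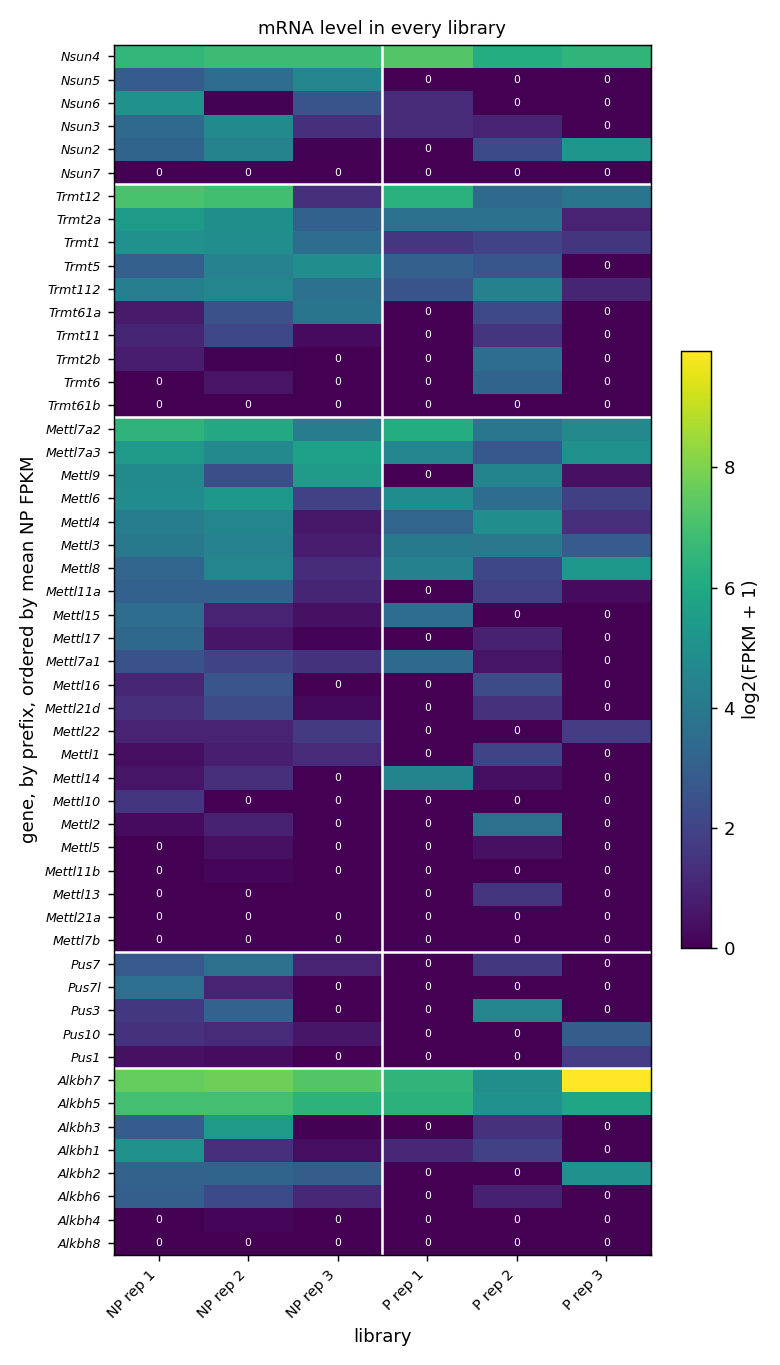
Level of the 52 mRNAs (rows, grouped by prefix and ordered by mean NP level) in each of the 6 libraries (columns), as log2(FPKM + 1), with 0 printed where an mRNA was listed at 0. *Nsun4*, *Alkbh5* and *Alkbh7* stay bright across all 6 columns, while many rows have a value in only 1 P library.

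**Figure D2:**
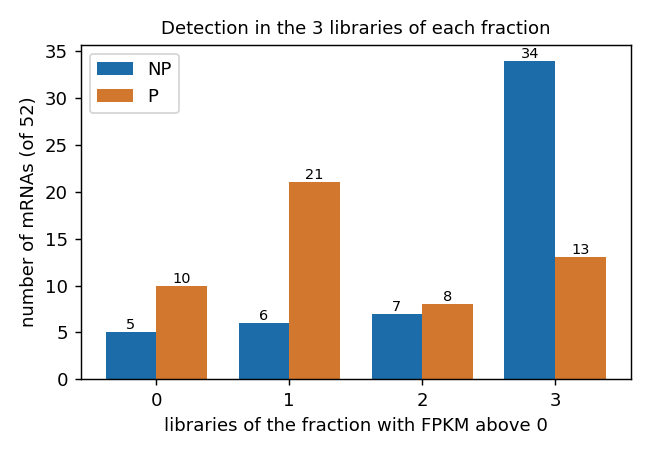
Number of the 52 mRNAs (vertical axis) that were above 0 FPKM in 0, 1, 2 or 3 libraries of each fraction (horizontal axis), with NP in blue and P in orange. In NP 34 were seen in all 3 libraries, and in P 21 were seen in 1 library.

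Of the 52 mRNAs, 41 had a mean above 1 FPKM in either fraction and entered the comparison (5 *Nsun*, 9 *Trmt*, 17 *Mettl*, 4 *Pus* and 6 *Alkbh*), and 11 did not. Among these 41, 31.7% were above 0 in all 3 P libraries, against 44.0% of all genes tested, 2 (4.88%) were at 0 in all of them, against 10.8%, and 82.9% were above 0 in all 3 NP libraries, against 79.7%. In 23 of the 39 that were seen in P at all (59.0%), 1 library held more than 90% of the summed P value, against 31.1% of genes seen in P. The median over the 41 of the mean level was 9.78 FPKM in NP and 3.58 in P, against 10.2 and 4.63 over all genes. A mean over the P libraries was therefore often the value of 1 library, and the level in each library is given below.

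Of the members that act on N6-methyladenosine or on spliceosomal RNA, *Alkbh5* was the most abundant in both fractions. *Alkbh5* (chromosome 11, 60536381 to 60558512, GRCm38), which encodes the demethylase, was at 123, 123 and 86.0 FPKM in NP replicates 1 to 3 and at 83.6, 32.8 and 58.6 in P. Every P value lay below every NP value, although the gap between 86.0 and 83.6 is small beside the SD of 21.2 in NP and 25.4 in P (n = 3 each). Its log2 ratio was -0.99 with a standard error of 0.84, or 0.04 relative to the median gene (limma, Benjamini-Hochberg adjusted p = 0.525). *Alkbh5* rests on 81, 223 and 544 recovered reads in P, more than most of the others.

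*Mettl3* (chromosome 14, 52294668 to 52305128) encodes the catalytic subunit of the writer. It was at 15.4, 20.3 and 0.724 FPKM in NP and at 15.3, 14.5 and 6.15 in P. The 3 P libraries sat within the NP range, and NP replicate 3 alone was low. The log2 ratio of 0.53 ± 1.24 (SE) turned to -0.62 without NP replicate 3 (adjusted p = 0.839 with all libraries, limma). Of its exon bases 18.4% also lie in exons of *Tox4* on the opposite strand.

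*Mettl14*, the RNA-binding partner of *Mettl3*, had a different profile. It was at 0.473, 1.52 and 0 FPKM in NP and at 21.5, 0.342 and 0 in P, and 98.4% of the P sum came from P replicate 1, where it amounts to 26 reads. Its log2 ratio of 1.01 ± 1.13 (SE) was the highest among the 41 and became -0.42 when that library was left out with the filter kept. With means of 0.665 FPKM in NP and 7.27 in P, *Mettl14* entered the comparison through P alone. It was not compared when the filter was recomputed without P replicate 1. In every library but P replicate 1, *Mettl14* was recorded below *Mettl3*.

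*Mettl16*, which methylates a spliceosomal snRNA and the mRNA of an S-adenosylmethionine synthetase, was at 1.11, 5.08 and 0 FPKM in NP and at 0, 3.80 and 0 in P. *Mettl4*, a methyltransferase of another spliceosomal snRNA, was at 17.3, 21.8 and 0.575 in NP and at 8.52, 28.5 and 1.50 in P. In both, replicate 2 was the highest library of its fraction and the fractions overlapped. The log2 ratios were -0.47 ± 0.996 and 0.03 ± 1.34 (SE), and over the 5 mRNAs with mRNA or spliceosomal targets, *Mettl14* included, the median ratio was 0.03.

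Of the 2 enzymes of cytosolic rRNA, *Nsun5* had the lowest adjusted p among the mRNAs compared. *Nsun5* (chromosome 5, 135369953 to 135376805) methylates a cytosine of the large ribosomal subunit. It was at 6.43, 10.8 and 22.5 FPKM in NP, a mean of 13.2 ± 8.31 (SD, n = 3), and was listed at 0 in all 3 P libraries. At their depths 3 reads would be worth 4.28, 0.610 and 0.449 FPKM, so the limit of P replicate 1 lies close to the level in NP replicate 1, whereas those of P replicates 2 and 3 lie under 0.1 of every NP value. The log2 ratio was -3.67 ± 1.15 (SE), the lowest of the 41 and -2.64 relative to the median gene, though its size depends on the pseudocount because P is at 0. It missed the threshold of 0.1 without replicate pairs (limma, adjusted p = 0.136) and passed it with the replicate number as a block (adjusted p = 0.0567). A share of 15.4% of its exon bases overlaps *Pom121* on the other strand, and these reads could not be assigned by strand here. *Mettl5*, which methylates an adenosine of the small subunit rRNA, was seen only in replicate 2, at 0.363 FPKM in NP and 0.359 in P, the latter being 1 read.

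Of 16 mRNAs for enzymes of cytosolic tRNA that were compared, 14 had a ratio below 0 and 2 above, where 80.1% of all genes were below 0, and their median of -0.60 lay above the -1.03 of all genes. *Trmt1* (chromosome 8, 84686307 to 84699808) makes dimethylguanosine in the tRNA body. It was at 31.5, 28.2 and 11.2 FPKM in NP and at 1.94, 3.06 and 1.84 in P, the latter from 2, 22 and 18 reads. All 3 P libraries lay well below all 3 NP libraries. The log2 ratio was -2.81 ± 1.17 (SE), or -1.77 relative to the median gene, and did not pass the threshold (limma, adjusted p = 0.258, or 0.146 with the replicate block).

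*Trmt12* and *Trmt5* both serve the modified guanosine beside the anticodon of phenylalanine tRNA, *Trmt5* in its first step and *Trmt12* in a later one. *Trmt12* was at 134, 121 and 1.52 FPKM in NP and at 81.2, 9.96 and 13.6 in P. *Trmt5* was at 7.26, 20.1 and 28.3 in NP and at 7.31, 5.25 and 0 in P. The low NP library of *Trmt12*, replicate 3, was the highest NP library of *Trmt5*. Their log2 ratios were -0.55 ± 1.31 and -2.21 ± 1.25 (SE); without NP replicate 3 the ratio of *Trmt12* was -2.44.

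*Trmt2a*, a methyluridine enzyme of the T loop, was at 41.9, 29.9 and 7.46 FPKM in NP and at 12.3, 12.2 and 0.912 in P. *Trmt61a* and *Trmt6* are the catalytic and the RNA-binding subunit of the enzyme that methylates an adenosine of the same loop. *Trmt61a* was at 0.664, 4.59 and 13.6 in NP and at 0, 3.60 and 0 in P, while *Trmt6* was at 0, 0.421 and 0 in NP and at 0, 8.14 and 0 in P. For *Trmt6* the only libraries with a value were those of replicate 2, so its log2 ratio of 0.89 ± 0.88 (SE) rests on that pair. With means of 0.140 FPKM in NP and 2.71 in P, *Trmt6* entered the comparison through P alone. The ratio of *Trmt61a* was -1.63 ± 1.18 and that of *Trmt2a*, which shares 16.5% of its exon bases with *Dgcr8* and *Ranbp1*, was -1.69 ± 1.20. Across the 52 mRNAs, 12 share more than 10% of their exon bases with another gene and 30 share none.

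*Trmt112*, an activator that several methyltransferases of tRNA, rRNA and protein need, was above 0 in every library. It was at 18.3, 21.9 and 11.9 FPKM in NP and at 4.95, 19.9 and 1.05 in P, with 1, 28 and 2 reads in the latter. P replicate 2 fell within the NP range and the other P libraries below it. Its exons overlap *Esrra* and *Prdx5* over 39.1% of their bases.

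*Nsun2*, the main cytosine methyltransferase of cytosolic tRNA, was at 8.31, 20.99 and 0.0431 FPKM in NP and at 0, 3.66 and 36.8 in P. Both fractions spanned the range from near 0 to over 20, and the log2 ratio was -0.09 ± 1.46 (SE). *Nsun6*, which methylates the acceptor end of a few tRNAs, was at 33.1, 0.0346 and 4.92 in NP and at 1.27, 0 and 0 in P, the P value being 1 read. In NP replicate 2, the deepest library, *Nsun6* rested on 3 reads, against 204 in the shallower NP replicate 1.

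*Mettl6*, a cytosine methyltransferase of serine tRNA, was at 26.5, 38.7 and 2.88 FPKM in NP and at 27.6, 11.1 and 2.65 in P. *Mettl1*, which methylates a guanosine of tRNA together with *Wdr4*, was at 0.278, 0.798 and 1.33 in NP and at 0, 3.01 and 0 in P. *Alkbh1*, a demethylase that also oxidises a mitochondrial tRNA, was at 32.4, 1.61 and 0.284 in NP and at 1.24, 2.84 and 0 in P. In all 3 the fractions overlapped, and in *Alkbh1* NP replicate 1 stood far above every other library. Their log2 ratios were -0.58 ± 1.23, -0.14 ± 0.85 and -1.23 ± 1.27 (SE).

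All 5 *Pus* mRNAs, for pseudouridine synthases and a relative, were seen in NP replicates 1 and 2, none was above 0 in P replicate 1, and none was above 0 in more than 1 P library. *Pus7*, which acts on tRNA and mRNA, was at 5.78, 11.7 and 0.909 FPKM in NP and at 0, 2.03 and 0 in P, with a log2 ratio of -1.92 ± 1.13 (SE). Its relative *Pus7l* was at 11.5, 0.991 and 0 in NP and listed at 0 in all 3 P libraries, where 3 reads would be worth 5.61, 0.800 and 0.589 FPKM. *Pus1*, the synthase shared by cytosolic and mitochondrial tRNA, was at 0.371, 0.253 and 0 in NP and at 0, 0 and 2.37 in P, and shares 30.1% of its exon bases with genes of the other strand. *Pus10*, which acts on the T loop, was at 1.68, 1.33 and 0.515 in NP and at 0, 0 and 6.57 in P. *Pus3*, which acts on the anticodon stem, was at 2.05, 7.83 and 0 in NP and at 0, 22.6 and 0 in P, but its value cannot be separated from *Hyls1* on the opposite strand, which shares 88.1% of its exon bases. For *Pus1*, *Pus3* and *Pus10* the single P library with a value thus exceeded every NP library. That of *Pus7* exceeded NP replicate 3 only, and *Pus7l* had no P value above 0. The ratios of *Pus10* and *Pus3* were -0.11 ± 0.996 and -0.06 ± 1.31 (SE).

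Among the mRNAs for mitochondrial RNA enzymes, *Nsun4* had like means in NP and P, while *Nsun3* was low in P. *Nsun4* (chromosome 4, 116032842 to 116053876), which methylates the small rRNA of the mitochondrial ribosome and assists in joining its subunits, was at 95.8, 110 and 113 FPKM in NP and at 154, 69.6 and 88.7 in P. The means were 106 ± 9.22 and 104 ± 44.1 FPKM (SD, n = 3), the P libraries lay on both sides of the NP libraries, and P was backed by 150, 475 and 824 reads. Its log2 ratio of -0.11 ± 0.79 (SE) was 0.92 above that of the median gene, a distance of little more than 1 SE, and became 0.82 when libraries were rescaled to a common sum, where all 3 P libraries lay above all 3 NP libraries.

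*Nsun3* (chromosome 16, 62732444 to 62786818), which methylates the wobble cytosine of mitochondrial methionine tRNA, was at 9.56, 25.4 and 1.51 FPKM in NP and at 1.27, 0.909 and 0 in P. The P libraries did not reach the lowest NP library, but P held only 1, 6 and 0 reads. The log2 ratio was -2.44 ± 1.23 (SE) and did not pass the threshold (limma, adjusted p = 0.336).

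*Mettl8* encodes a cytosine methyltransferase of mitochondrial tRNA, and *Trmt2b* a methyluridine enzyme of mitochondrial RNA. *Mettl8* was at 8.52, 22.3 and 1.39 FPKM in NP and at 19.6, 3.45 and 37.8 in P. *Trmt2b* was at 0.695, 0.0476 and 0 in NP and at 0, 10.7 and 0 in P. Both had ratios above 0, of 0.92 ± 1.25 and 0.91 ± 0.95 (SE), but the *Mettl8* libraries overlapped and *Trmt2b* rested on 1 P library with 57 reads. The ratio of *Mettl8* was 0.037 without NP replicate 3 and 0.24 without P replicate 3. With means of 0.248 FPKM in NP and 3.58 in P, *Trmt2b* entered the comparison through P alone. Over the 6 mRNAs of this class that were compared, the median ratio was -0.28.

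Among the members that act on protein or DNA, *Mettl9*, a histidine methyltransferase, was at 26.2, 4.22 and 43.6 FPKM in NP and at 0, 21.2 and 0.354 in P. P replicate 2 held 98.4% of the P sum and lay above NP replicate 2, so the fractions overlapped despite a log2 ratio of -2.57 ± 1.37 (SE). The DNA repair enzyme *Alkbh2* was steady in NP, at 7.97, 8.23 and 6.73, and was at 0, 0 and 31.8 in P. *Alkbh3*, which repairs alkylated DNA and RNA, was at 6.39, 41.0 and 0.0522 in NP and at 0, 1.66 and 0 in P. For *Alkbh2*, P replicates 1 and 2 were at 0 while P replicate 3 exceeded every NP library, and the 3-read limits of the former pair were 16.6 and 2.36 FPKM. Of the exon bases of *Alkbh2*, 29.5% also lie in *Usp30* on the opposite strand. The other protein methyltransferases were low, and the 9 with protein targets had a median of the mean level of 0.611 FPKM in NP and 0.569 in P.

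Several of the most abundant members have no settled RNA target. *Alkbh7* (chromosome 17, 56997339 to 56999322), a mitochondrial dioxygenase, was at 194, 215 and 155 FPKM in NP and at 89.0, 28.9 and 980 in P. P replicates 1 and 2 lay below all NP libraries and P replicate 3 far above them, with 15, 34 and 1561 reads behind the P values. The log2 ratio of -0.44 ± 0.95 (SE) was -1.85 without P replicate 3.

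*Mettl7a2* was at 86.4, 62.4 and 17.4 FPKM in NP and at 71.1, 14.1 and 24.3 in P, and *Mettl7a3* at 40.9, 24.8 and 50.0 in NP and at 22.6, 5.41 and 31.1 in P. These membrane-associated methyltransferase-like genes lie side by side with *Mettl7a1* on chromosome 15. Of their exon sequence, cut into stretches of 50 bases, between 24.8% and 52.5% recurs in another copy, so the values of the copies are uncertain, and 28.2% of the exon bases of *Mettl7a2* also lie in *Methig1* on the same strand. *Alkbh6* was at 6.98, 3.70 and 1.21 in NP and at 0, 0.842 and 0 in P, where it rested on 3 reads in replicate 2.

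**Figure D3:**
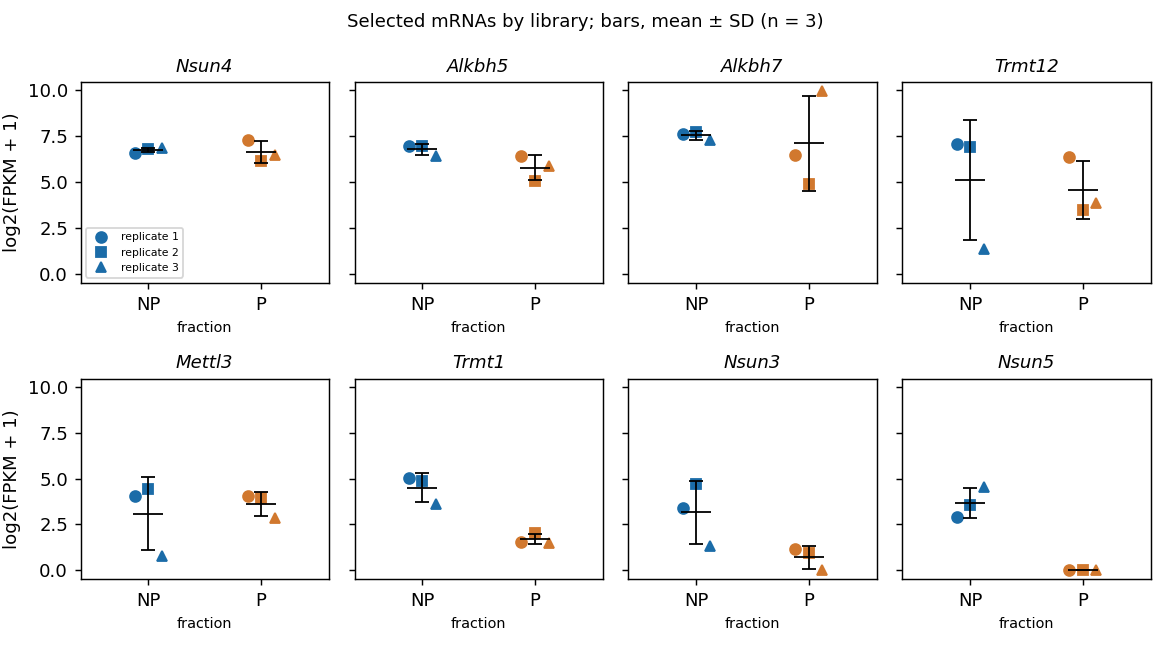
Level of 8 mRNAs in each library as log2(FPKM + 1) (vertical axis) in NP (blue) and P (orange); symbols give the replicate number, long bars the mean and whiskers the SD (n = 3). *Nsun4* overlaps between fractions, *Trmt1* and *Nsun5* do not, and *Alkbh7* and *Trmt12* each have 1 library far from the others of its fraction.

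Across all 41 mRNAs compared, none passed the threshold without the block, against 1.82% of all genes tested (192 of 10578, with 1.8% lower and 0.0189% higher in P). At an unadjusted p under 0.05 there were 2, *Nsun5* and *Trmt1*, against 15.8% of all genes. With the replicate number as a block, *Nsun5* alone passed, lower in P, against 6.31% of all genes in either direction and 6.27% lower. The smallest p that exact permutation of 3 and 3 libraries allows is 0.1, so separation is given as a count.

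All 3 P libraries lay below all 3 NP libraries for 5 of the 41 (12.2%), *Nsun3*, *Nsun5*, *Trmt1*, *Alkbh5* and *Alkbh6*, against 23.2% of all genes. For none of the 41 did P lie above NP, against 0.633% of all genes. After rescaling to a common sum, P lay below NP for 2 of 42, against 12.1% of all genes, and above NP for 1, *Nsun4*, against 3.05%. P was lower than NP of the same number in all 3 pairs for 15 mRNAs (36.6%, against 38.6% of all genes) and higher in all 3 for none. Ratios below 0 were found for 34 (82.9%, against 80.1%) with the values as deposited. After rescaling the libraries to a common sum, by median of ratios or by quantiles, the ratio was below 0 for 25 of 42, 23 of 41 and 22 of 40, against 61.6%, 60.0% and 53.6% of all genes. The share below 0 and the share lower in every pair thus lay near those of all genes.

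**Figure D4:**
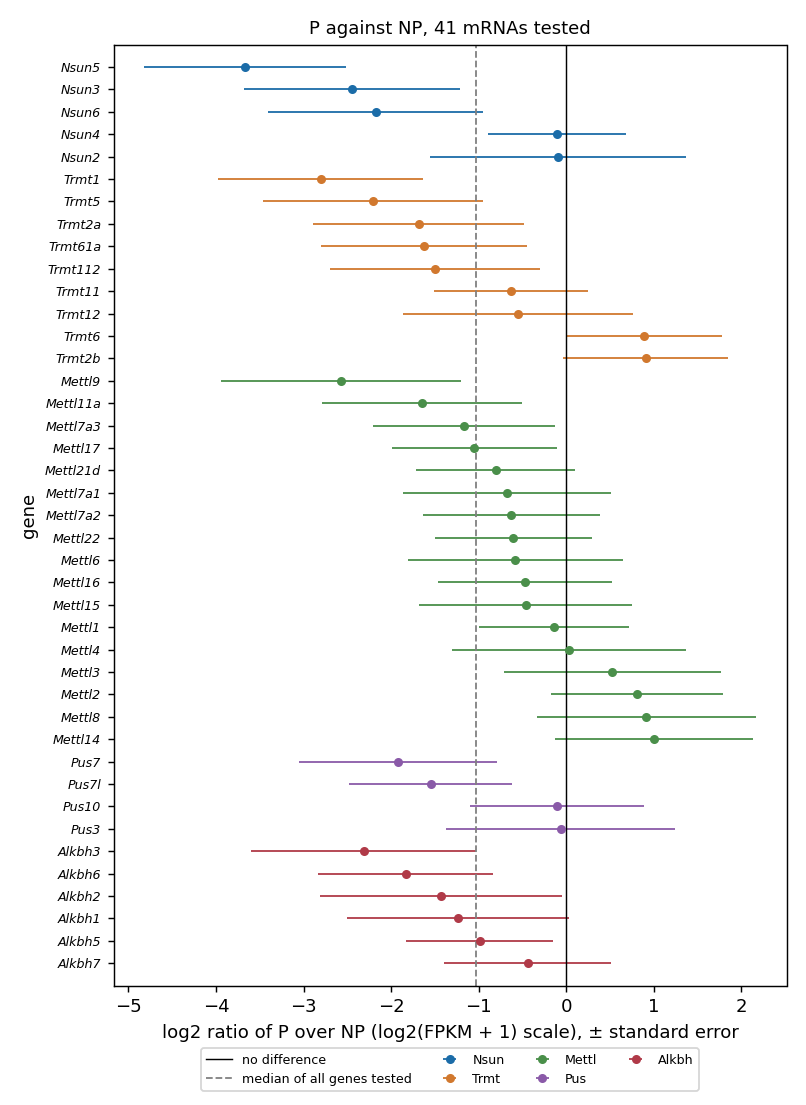
Log2 ratio of P over NP on the log2(FPKM + 1) scale (horizontal axis) with its standard error (whiskers) for the 41 mRNAs compared, ordered within each prefix; the solid line marks no difference and the dashed line the median of all genes tested, -1.03. Ratios run from -3.67 for *Nsun5* to 1.01 for *Mettl14*, and most whiskers cross the dashed line.

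The median log2 ratio of the 41 was -0.68, against -1.03 over all genes. By prefix it was -2.17 for *Nsun*, -1.50 for *Trmt*, -0.58 for *Mettl*, -0.83 for *Pus* and -1.33 for *Alkbh*. These medians rest on between 4 and 17 mRNAs and are not given with libraries left out. The *Nsun* median is the ratio of *Nsun6*, whose NP values ran from 0.0346 to 33.1 FPKM. Within *Nsun* the ratios split into 3 mRNAs at or below -2.17 and 2, *Nsun4* and *Nsun2*, near 0. The median over the 41 within pairs was -1.08, -0.99 and -0.21 for replicates 1 to 3. Its place relative to all genes was not stable: it lay below theirs without P replicate 1 (-1.26 against -1.03), and with all libraries at a pseudocount of 0.1 (-1.85 against -1.73).

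NP replicate 3 was often the low library of its fraction. It was the lowest NP library for 31 of the 41 (75.6%), against 60.8% of all genes, and lay under 0.1 of both others for 11 (26.8%), against 24.35%. *Trmt12*, *Mettl3*, *Mettl4* and *Nsun2* are such cases among the more abundant members. Without it, 8 of the 41 (19.5%) had an unadjusted p under 0.05, against 22.6% of all genes, none passed the threshold, and their median was -1.30, against -1.35 over all genes.

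The 3′ elements shown above were set beside the ratios as description only. The 8 compared mRNAs with an element had a median log2 ratio of -1.58 and the 31 without one -0.63, while over all genes the medians were -0.86 with and -1.07 without. The 8 included the lowest ratio, of *Nsun5* (-3.67), and the highest, of *Mettl14* (1.01). With so wide a range over 8 mRNAs, their median does not show whether the element goes with a lower or a higher ratio, and this was not tested.

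The rest of the pathway was read from a list of 95 further genes, including other writers, readers, pseudouridine synthases and tRNA enzymes. Of 79 compared, 62 had a ratio below 0 and 17 above (80.1% of all genes were below 0), with a median of -0.95, and none passed the threshold without the block (7 at an unadjusted p under 0.05). The latter are 8.86%, against 15.8% of all genes. P lay wholly below NP in 12 (15.2%), against 23.2% of all genes. With the replicate block 3 passed in limma (3.80%, against 6.31%), all lower in P: the tRNA enzymes *Gtpbp3* (adjusted p = 0.0771), *Ftsj1* (adjusted p = 0.0848) and *Dus3l* (adjusted p = 0.0960).

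Among the partners of the N6-methyladenosine enzymes, the writer subunit *Wtap* was at 19.4, 19.9 and 1.27 FPKM in NP and at 3.24, 12.7 and 1.37 in P, low in NP replicate 3 like *Mettl3*. The second demethylase *Fto* was at 2.23, 1.68 and 4.35 in NP and at 0, 1.21 and 0 in P, without overlap. Of the readers, *Ythdf2* was at 19.6, 33.6 and 25.8 in NP and at 17.4, 15.7 and 2.82 in P, also without overlap, although the gap between 19.6 and 17.4 is small. The log2 ratios of *Fto* and *Ythdf2* were -1.46 ± 0.95 and -1.34 ± 1.10 (SE), beside a median of -1.03 over all genes. Neither passed the threshold (limma, adjusted p = 0.442 and 0.516). *Ythdf1*, *Ythdf3* and *Ythdc1* had log2 ratios of 0.12 ± 1.22, -0.95 ± 1.10 and -1.50 ± 1.09 (SE), and *Ythdc2* was below the level needed for the comparison. Over the 8 readers compared, 6 ratios were below 0 and 2 above. Outside the YTH family, *Igf2bp2* was the most abundant reader, at 145, 174 and 50.4 in NP and at 83.9, 59.2 and 36.4 in P. *Igf2bp3* had the lowest ratio of the readers, -3.20 ± 1.37 (SE; limma, adjusted p = 0.270), and *Hnrnpa2b1* the highest, 1.401, and neither passed the threshold. The pseudouridine synthase *Dkc1*, the acetyltransferase *Nat10* and the editing enzyme *Adar* had ratios of -0.41 ± 1.25, -0.65 ± 1.07 and -0.94 ± 0.83, and none of these ratios passed the threshold.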

How the data were processed

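The deposited values are 1 FPKM per gene and library, which the authors computed in Seqmonk, beside their means per fraction (not used), from reads trimmed by Trim Galore 0.4.1 and mapped by HISAT2 2.0.5 to the GRCm38 assembly. FPKM divides fragments by exon length and by mapped reads. Which gene annotation they used, how strand was treated and how reads were filtered was not found in the study's methods or labels. RNA was depleted of rRNA and passed through whole transcriptome amplification, so reads are not independent molecules.

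Of 25965 rows, 66 repeated a symbol, and the row with the highest mean was kept. P and NP were compared by limma 3.58.1 (R 4.3.3) with trend on log2(FPKM + 1), for every gene whose mean reached over 1 FPKM in NP or in P, two-sided, with Benjamini-Hochberg adjustment over all genes tested and a threshold of 0.1. Standard errors come from that fit. The fit was tested on simulated data whose spread between libraries was smaller than here and which lacked the many P values at 0. That test does not show the power or error rate of the fit on these libraries. The study's own comparison was between ages, and no block was used; 21 alternative fits (pseudocounts, filters, scalings, no trend, replicate block, each library left out with the filter recomputed or kept) and a threshold of 0.05 were run. Since NP and P were pooled from the gradient of each lysate, libraries of the same number were treated as pairs, which the labels do not spell out. Pairs were used only in the replicate block fit and in the within-pair counts and medians. The main fit, with its standard errors and p-values, was unpaired. After subtracting group means, values correlated over genes at 0.0634, 0.0991 and 0.116 in the 3 matched pairs; unmatched pairs lay between -0.0886 and 0.0208.

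Depth was recovered as the smallest step that makes the lowest 20% of detected values whole within 0.02 reads, using GENCODE M21 exon lengths, found for 94.6% of genes. Between 52.1% and 64.7% of those values came out whole, too few for a count test. The first 2 versions of this search failed on some simulated depths and were revised after values had been seen and with earlier depth estimates known; the version used recovered the simulated depths. Read numbers in the text are rounded from it, and reads over exons were between 1.16 and 2.39 times the depth.

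Members and lists were chosen with earlier results of these data known. mRNAs are named with their values where the mean reached 10 FPKM in a fraction, where the fractions did not overlap, where a fraction was at 0 against a mean above 1, for the 3 highest and 3 lowest ratios, and for well-known roles. The target classes, the 3′ letters with their medians, the comparison of NP replicate 3, the exon overlaps, the shared stretches, the share held by 1 library and the 8 mRNAs plotted singly were added after values had been seen. The 3′ letters were read from the basic protein-coding transcript with the longest coding sequence. This naming rule was applied only to the mRNAs chosen by prefix, of which *Pus3* and *Pus10* did not meet it. It was not applied to the pathway genes *Gtpbp3*, *Ftsj1*, *Dus3l*, *Igf2bp2*, *Igf2bp3* and *Hnrnpa2b1*. All of these but *Hnrnpa2b1* would have met its limit for level or for overlap. *Pus3*, *Pus10* and these pathway genes were named after their values were seen. Python 3.11.15 was used for summaries and matplotlib 3.10.9 for plots.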

Additional observations from a re-analysis of the deposited data

How the results depend on the processing

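Of 640 log2 ratios of the 31 named and compared mRNAs under 21 alternative fits, 571 kept their direction and their side of the threshold, 1 passed it (*Nsun5* with the replicate block), and 68, over 14 mRNAs, turned direction. The filters, the replicate block and the fit without trend cannot change a ratio, only its adjusted p. A library left out gives the same ratio with the filter recomputed or kept. The 571 therefore overstates how often a turn of direction was possible and not seen. After median-of-ratios rescaling the ratio turned for *Alkbh7* (0.55), *Mettl1* (0.12), *Mettl16* (0.0076), *Mettl6* (0.34), *Mettl7a2* (0.35), *Nsun2* (0.81), *Nsun4* (0.88) and *Trmt12* (0.44). After quantile normalization it turned for *Alkbh7* (0.36), *Mettl16* (0.10), *Mettl6* (0.47), *Mettl7a2* (0.25), *Nsun2* (0.54), *Nsun4* (0.90) and *Trmt12* (0.16). After rescaling to a common FPKM sum it turned for *Alkbh7* (0.49), *Mettl1* (0.26), *Mettl6* (0.27), *Mettl7a2* (0.27), *Nsun2* (0.50), *Nsun4* (0.82) and *Trmt12* (0.31). With a pseudocount of 5 it turned for *Mettl1* (0.016), *Mettl4* (-0.059) and *Nsun2* (0.018). With each library left out, the ratio ran from -2.19 to 0.16 for *Alkbh1*, from -1.85 to 0.67 for *Alkbh7*, from -0.81 to 0.19 for *Mettl1*, from -0.42 to 1.83 for *Mettl14*, from -1.23 to 0.22 for *Mettl16*, from -0.62 to 1.20 for *Mettl3*, from -1.20 to 0.95 for *Mettl4*, from -1.61 to 0.20 for *Mettl6*, from -1.47 to 1.15 for *Nsun2*, from -0.43 to 0.14 for *Nsun4*, from -2.44 to 0.43 for *Trmt12*, from -0.28 to 1.50 for *Trmt2b* and from -0.17 to 1.43 for *Trmt6*.

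No RNA modification mRNA passed the threshold in any alternative except the replicate block (1, against 0 without it); pairing by replicate number raised the count over all genes from 192 to 668. That count was 69 with a pseudocount of 0.1, 1 with no filter, 3 after median-of-ratios rescaling (2 higher, 1 lower), 5 after quantile normalization (2 and 3), 7 after rescaling to a common sum (2 and 5), 15 without trend and 65 at a threshold of 0.05, and ran from 0 to 331 with each library left out. The number of RNA modification mRNAs whose fractions did not overlap was 3 (7.14%) after rescaling to a common sum, 1 of them, *Nsun4*, higher in P, against 15.1% of all genes, and ran from 7 (17.1%, against 29.4%) to 15 (36.6%, against 36.8%) with each library left out, since fewer libraries have to be separated. The number above 1 FPKM in all 3 NP libraries was 19. Their median log2 ratio was -1.85 with a pseudocount of 0.1, -1.24 with a filter at 5 FPKM (27 mRNAs), -0.19 after median-of-ratios rescaling, -0.042 after quantile normalization and -0.18 after rescaling to a common sum, and ran from -1.32 (without NP replicate 3) to -0.50 with each library left out. Relative to the median of all genes it was 0.36 as reported, 0.40 at most (without NP replicate 1), 0.04 with a pseudocount of 5, 0.07 with a filter at 5 FPKM, -0.12 with the lower pseudocount, -0.23 without P replicate 1 and -0.53 with no filter, where 52 mRNAs enter and the median of all 25899 genes is 0. For the other pathway genes (79 of 95 compared as reported, 76 to 80 here) the median was -1.34 with a pseudocount of 0.1, -0.51 with one of 5, -0.20, 0.080 and -0.27 after the same 3 rescalings, and from -1.34 to -0.70 with each library left out. The cause of these shifts was not tested. Depth limits P replicate 1 most, where 3 reads are worth at least 1.34 FPKM for any of these mRNAs.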
